A study of Agaricus bisporus with 8 samples.

Results

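The 20 genes described here were chosen for more transcript in drying than in watered mycelium of the button mushroom Agaricus bisporus where no riboflavin had been supplied. They were chosen among the 449 genes that counted as expressed, of 10413 genes on the array, and make up 4.45% of the expressed genes. A gene counted as expressed if its net signal, the median spot brightness minus the median local background, was 40 or higher in at least 2 of the 16 channels. Its mean log2 ratio of drought over irrigated, in the values the authors deposited, had to reach 0.6 over the 4 arrays of mycelium grown with plain water, and the ratio had to exceed 0 on at least 3 of these arrays. The genes were thus chosen by their ratios on the water arrays, which are given as a description with no test. The riboflavin arrays did not enter the ratio part of the rule.

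Hyphae of A. bisporus var. bisporus, strain H97, were grown on hay in mesocosms closed to gas exchange, and these were irrigated over 3 weeks with water alone or with water that held 50 µM riboflavin (vitamin B2). In the drought arm irrigation was then stopped, and mycelium was harvested on day 3 and on day 7. Each of the 8 arrays set drought RNA of a supplement and day against RNA of mycelium of the same supplement and day that was still irrigated, with 2 arrays for each of the 4 combinations of supplement and day. Replicate 1 of every group had the drought RNA in Cy3 and replicate 2 had it in Cy5, which makes replicate number and dye orientation inseparable. The titles call the arrays of a group replicates 1 and 2, whereas the descriptions give both the same biological replicate number. The p-values hence cover array-to-array spread, which may be technical, and may not cover the spread between cultures. All groups came from a single strain.

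Hyphae stand in water balance with their surroundings, and fungi that dry out are known to build up compatible solutes such as mannitol and trehalose and to make heat shock and antioxidant proteins. Riboflavin is the precursor of the cofactors FMN and FAD, which carry electrons in many oxidoreductases, among them flavoproteins of the respiratory chain. Cytochrome c takes electrons along that chain to cytochrome oxidase in the inner mitochondrial membrane.

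All 20 genes had a locus tag in the reference table, and 1 of them, CytC2, had a symbol. That table gives no description for the other 19, which are named by locus tag only. Each gene was read by 1 probe, 12 of them spotted in duplicate, and the duplicate spots differed by a median of 0.0936 log2 units and at most 0.921. No spot of the 20 genes was saturated or marked as an outlier. Their median net signal over the 16 channels ran from 14.9 for AGABI2DRAFT_118861 to 8968 for AGABI2DRAFT_191238. On all 4 water arrays, drought signals were well above background for 14 of the genes and irrigated signals for 7. For 3 genes no water array had an irrigated signal well above background. No hydrophobin symbol stood in the reference table, so the mycelium label was not checked against marker genes.

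Signals were low over the array as a whole, with 478 to 797 probes well above background per array. Across the 445 expressed genes without missing values, the log2 ratios of both arrays of a group correlated at 0.38 for water day 3 and 0.55 for water day 7. In riboflavin-grown mycelium the same correlations were -0.38 on day 3 and -0.48 on day 7. Arrays of the same replicate number on different days correlated at 0.67 (riboflavin replicate 1) and 0.87 (riboflavin replicate 2). These correlations are taken over genes, which are not independent replicates. The riboflavin arrays of opposite dye orientation thus ran against each other as labelled, so the direction of the riboflavin ratios is not settled by the data. Riboflavin ratios are given in the direction of the labels. For the fitted responses of named genes and most counts that depend on it, the value with both replicate 2 arrays turned in sign is given beside them.

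A total of 4 genes had a deposited ratio of 0.6 or higher on all 4 water arrays. They were AGABI2DRAFT_136259, AGABI2DRAFT_191238, AGABI2DRAFT_195860 and CytC2. AGABI2DRAFT_136259 led the set. Its net signal in drying mycelium was 1548 and 1801 on the day 3 arrays and 1234 and 1241 on the day 7 arrays, against 70.5, 109, 60 and 91.25 in irrigated mycelium. Every drought signal lay above every irrigated signal, in whichever dye the drought RNA was labelled. Normalized within each array by loess, the day 3 arrays gave log2 ratios of 3.90 and 2.46 and the day 7 arrays 3.92 and 3.34, with a mean of 3.41 ± 0.69 (SD, n = 4 arrays). In bulk RNA, more hyphae of a kind and more RNA per hypha cannot be told apart.

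AGABI2DRAFT_191238 was the brightest of the 20 genes. Drought signals of 8370, 9282, 11182 and 5682.5 stood beside irrigated signals of 1604, 1053, 8156 and 907, in the order day 3 replicates 1 and 2, then day 7 replicates 1 and 2. The irrigated signal of day 7 replicate 1 was the exception among these and reached into the drought range. The log2 ratios were 2.88, 1.98, 1.16 and 2.12, so that the lowest came from that array (mean 2.04 ± 0.71 SD, n = 4).

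AGABI2DRAFT_195860 was dim in irrigated mycelium. Its irrigated net signal was 3 to 24.5 on the water arrays and was well above background on none of them, while its drought signal was 254, 165, 157.5 and 79.5. The mean drought level was 2.94-fold the irrigated level on day 3 and 3.10-fold on day 7. An "at least" fold, as used below, raises the irrigated channel to the dimmest level that was well above background on its array. It then sets the mean normalized drought channel against that level. For this gene the irrigated channel was already no lower, so its folds are plain mean ratios and not lower bounds. All these folds are open to dye bias. The log2 ratios were 2.44 and 0.68 on the day 3 arrays; the day 7 arrays gave 2.06 and 1.21.

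CytC2 is the only named gene of the set, and its symbol denotes a cytochrome c. Its net signal was 351, 445, 1224 and 837 in drying mycelium and 172, 82.25, 398 and 237 in irrigated mycelium, in the same order of arrays. Drought exceeded irrigated on each array, although the irrigated level of day 7 replicate 1 lay above the drought level of day 3 replicate 1. The log2 ratios were 1.22, 0.92, 1.96 and 1.66 (mean 1.44 ± 0.46 SD, n = 4), the narrowest spread of these 4 genes.

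The riboflavin arrays gave CytC2 another profile. The day 3 arrays gave drought net signals of 393.5 and 198 and the day 7 arrays 321 and 2311, beside irrigated signals of 896.5, 115.5, 582 and 172. The log2 ratios were -0.39, 0.07 and -0.40 on the first 3 arrays and 3.47 on day 7 replicate 2. That last array stood far above the other 3. The fitted riboflavin day 7 response was 1.54 ± 0.81 (limma standard error, 2 arrays; adjusted p 0.999), and it stood at -0.42 without riboflavin day 7 replicate 2 and at -2.08 with both replicate 2 arrays turned.

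Other genes of the respiratory chain were found by symbol. Of the symbols listed for this purpose, 7 were on the array and 3 were expressed, and among all respiratory chain symbols that the reference holds, 55 were on the array and 5 were expressed. CytC2 was the sole member of the drought-raised set among them. SDH1 and SDH2, subunits of succinate dehydrogenase, had mean water ratios of -0.02 and 0.15. The complex I subunits NdufS7 and NdufA1 had mean water ratios of 0.30 and 0.31. Their ratios on single water arrays ran from -0.14 to 1.16 for NdufS7 and from -0.07 to 0.81 for NdufA1, so neither was above 0 on all 4. Of the lists for drought stress proteins, 10 symbols of heat shock and antioxidant genes were on the array and none was expressed. The 7 laccase and manganese peroxidase symbols on the array, enzymes that oxidize phenols and lignin, were likewise none of them expressed. Only 449 of the 10413 genes on the array counted as expressed, so lists this short can hold none. Their absence is not read as a drought result. No symbol for riboflavin synthesis matched.

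**Figure D1:**
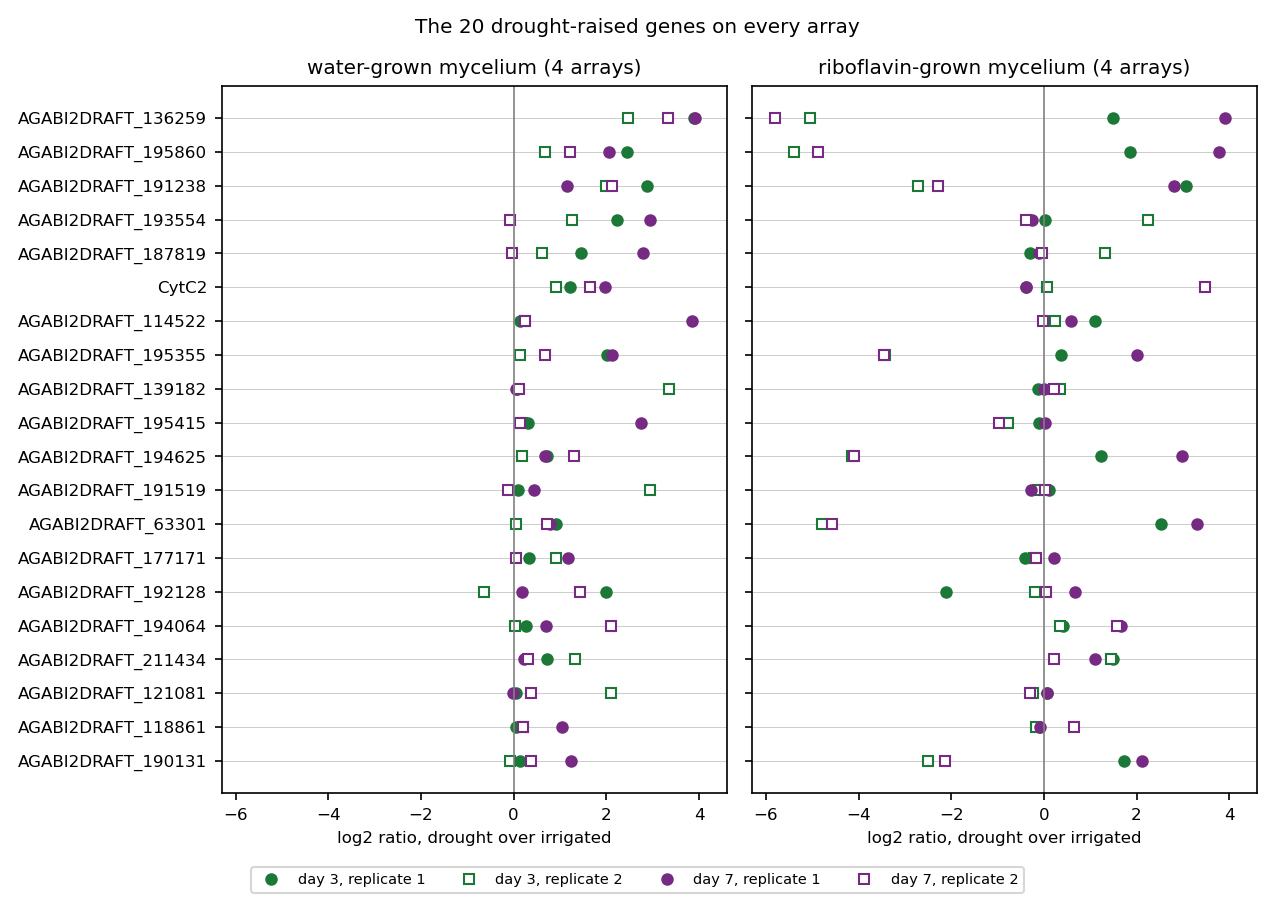
Normalized log2 ratio of drought over irrigated (x axis) for each of the 20 genes (rows, ordered by their deposited mean over the water arrays) on the 4 water arrays (left) and the 4 riboflavin arrays (right). Circles are replicate 1 (drought RNA in Cy3), squares replicate 2 (drought RNA in Cy5), green is day 3 and purple day 7, and AGABI2DRAFT_136259 runs from 2.46 to 3.92 with water and from -5.79 to 3.91 with riboflavin.

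With riboflavin, 3 of the 4 leading genes split by replicate number. AGABI2DRAFT_136259 had log2 ratios of 1.48 and 3.91 on the replicate 1 arrays and of -5.04 and -5.79 on the replicate 2 arrays. AGABI2DRAFT_195860 gave 1.85 and 3.79 against -5.40 and -4.88, and AGABI2DRAFT_191238 gave 3.07 and 2.82 against -2.71 and -2.28. The split was the same on both days, with drought above irrigated where drought RNA carried Cy3 and below it where drought RNA carried Cy5.

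The same split held for AGABI2DRAFT_194625, AGABI2DRAFT_63301 and AGABI2DRAFT_190131. In all, 6 of the 20 genes had a ratio above 1 on both riboflavin replicate 1 arrays and below -1 on both replicate 2 arrays. Among the 445 expressed genes 11 did so (2.47%). The 6 genes thus make up 30% of the set and 54.5% of the 11. The limit of 1 was chosen after the values were seen, and no test was made of this count. The other 5 genes of this kind had deposited mean water ratios of 0.25 to 0.57, below the limit of 0.6 for membership. AGABI2DRAFT_193572 had the highest of them, just below that limit.

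**Figure D2:**
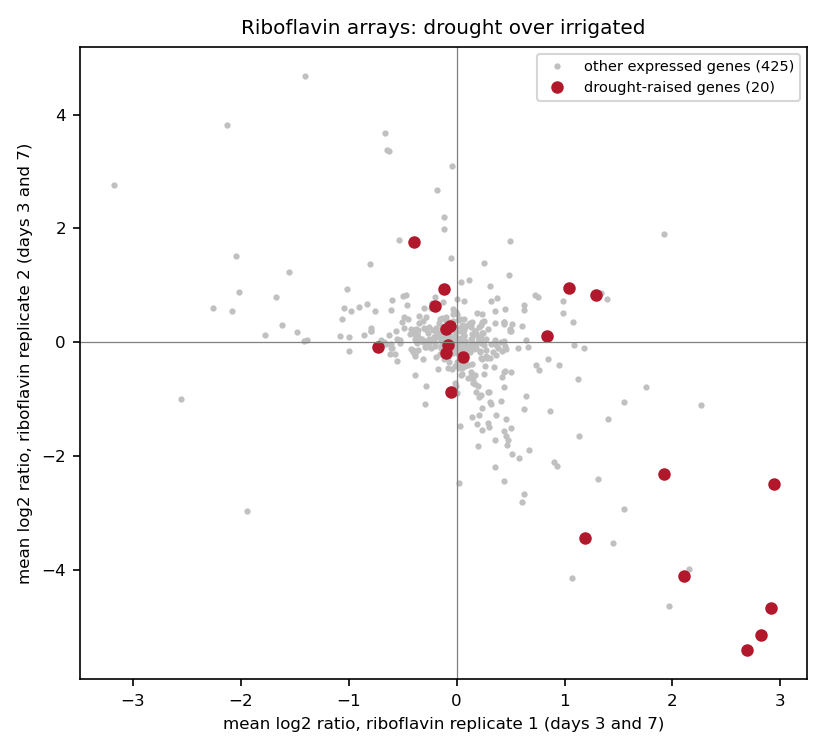
Mean log2 ratio of drought over irrigated on the 2 riboflavin replicate 1 arrays (x axis) against the mean on the 2 riboflavin replicate 2 arrays (y axis), for the 20 drought-raised genes (red) and the other expressed genes without missing values (grey). The 6 opposed genes and AGABI2DRAFT_195355 lie at the lower right, positive in replicate 1 and negative in replicate 2.

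The net signals show which channels were bright. For AGABI2DRAFT_136259 the Cy3 channels of the 4 riboflavin arrays read 10622 to 38743 and the Cy5 channels 302 to 5069.8. Drought RNA lay in Cy3 on replicate 1 and irrigated RNA on replicate 2, so both conditions were bright in Cy3. In all 6 genes the Cy3 net signal exceeded the Cy5 net signal on 4 of 4 riboflavin arrays. On the water arrays Cy3 was the brighter on 2 of 4 for each of the 6, since there the drought channel was the brighter in either dye. On the water arrays their ratio was higher in replicate 1 than in replicate 2 in 10 of 12 pairs of arrays, against 26 of 40 pairs over all 20 genes. These pairs share arrays and are not independent, and they were not counted over all expressed genes. The median water ratio of the expressed genes was 0.04 in replicate 1 and -0.09 in replicate 2 on day 3. On day 7 these medians were -0.002 and -0.02. Dye orientation and the replicate cannot be told apart in this design, and the part of either in the split was not tested.

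**Figure D3:**
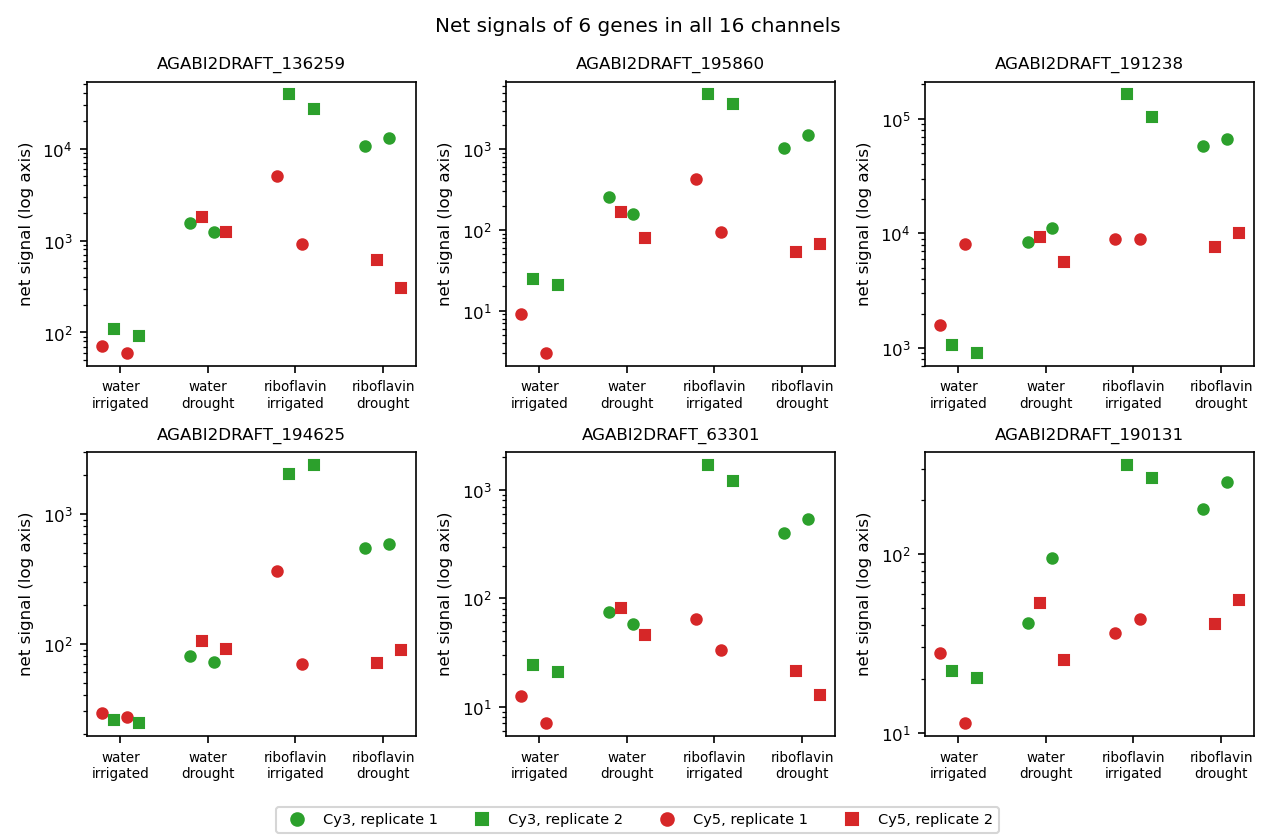
Net signal (log axis, arbitrary scanner units) of 6 genes in the 4 irrigated and 4 drought channels of each supplement, with green for Cy3, red for Cy5, circles for replicate 1 and squares for replicate 2. With water, drought exceeds irrigated within each array in either dye, although drought and irrigated points of AGABI2DRAFT_191238 and AGABI2DRAFT_190131 overlap between arrays. With riboflavin every Cy3 point lies above every Cy5 point of the same gene.

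Among these genes AGABI2DRAFT_194625, AGABI2DRAFT_63301 and AGABI2DRAFT_190131 had smaller water ratios than the leading genes. AGABI2DRAFT_194625 read 80.25, 104, 72 and 90.5 in drying mycelium and 24.25 to 29.25 in irrigated mycelium, with log2 ratios of 0.72, 0.18, 0.68 and 1.29. Its drought signals all lay above its irrigated signals. The net signals of AGABI2DRAFT_63301 likewise did not overlap, at 46 to 82 in drying mycelium and 7 to 24.25 in irrigated mycelium. Its log2 ratios were 0.91, 0.05, 0.78 and 0.71, so day 3 replicate 2 stood near 0 once normalized. On both day 7 arrays its irrigated signal did not rise well above background. The mean drought level there was 1.68-fold the irrigated level, a plain mean ratio and not a lower bound. AGABI2DRAFT_190131 overlapped, with drought signals of 41, 53.25, 94.5 and 25.5 beside irrigated signals of 11.25 to 28. Its log2 ratios were 0.14, -0.07, 1.23 and 0.38.

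AGABI2DRAFT_195355 came close to the same pattern. With water its drought net signals were 906, 801, 1687 and 628 and its irrigated signals 263.5 to 506, which did not overlap. The log2 ratios were 2.02 and 2.12 in replicate 1 and 0.14 and 0.68 in replicate 2 (mean 1.24 ± 0.99 SD, n = 4). With riboflavin they were 0.37 and 2.02 in replicate 1 and -3.43 and -3.45 in replicate 2. The fitted mean of both riboflavin days was -1.13 ± 0.54 (limma, adjusted p 0.653). It turned to 0.36 without both replicate 2 arrays and to 1.49 with them turned. In those fits the dye term came from the water arrays alone and lowered both values.

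Channel levels of these 7 genes, with both dyes pooled, differed between the supplements. The mean normalized log2 level of the 8 riboflavin channels, drought and irrigated together, was more than 1 unit above that of the 8 water channels for 7 of the 20 genes, against 14 of the 445 expressed genes (3.15%). AGABI2DRAFT_136259 differed by 2.71, AGABI2DRAFT_195860 by 2.37, AGABI2DRAFT_194625 by 2.12 and AGABI2DRAFT_195355 by 2.03. The values were 1.73 for AGABI2DRAFT_63301, 1.14 for AGABI2DRAFT_191238 and 1.12 for AGABI2DRAFT_190131. In the 6 opposed genes Cy3 was the brighter dye on every riboflavin array, and in AGABI2DRAFT_195355 on 3 of them. The level difference was thus not measured apart from the split by dye. The median difference of all 20 genes was 0.16, beside 0.05 for all expressed genes. Water levels had a part in choosing the genes, so this comparison was not tested. No riboflavin sample shared an array with a water sample, so the difference between the supplements lies between arrays.

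AGABI2DRAFT_193554 and AGABI2DRAFT_187819 moved alike on the water arrays. AGABI2DRAFT_193554 read 488.5, 302.5 and 1630.5 in the first 3 drought channels and 30.5 on day 7 replicate 2, beside 95, 30, 247 and 55.5 in irrigated mycelium. AGABI2DRAFT_187819 read 150.5, 117.5, 452.5 and 9 beside 27.5, 14.5, 43.5 and 24.5. Both were therefore higher in drought on 3 arrays and not on day 7 replicate 2. Their log2 ratios on that array were -0.09 and -0.04, and on the other water arrays they lay between 1.27 and 2.95 for AGABI2DRAFT_193554 and between 0.61 and 2.79 for AGABI2DRAFT_187819. With riboflavin both were high in drought on day 3 replicate 2 alone, at 2.25 for AGABI2DRAFT_193554 and 1.33 for AGABI2DRAFT_187819. Their other riboflavin ratios lay between -0.39 and 0.02.

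Of the 20 genes, 2 had a ratio above 0 on all 8 arrays, as did 7 of the 445 expressed genes (1.57%). In the deposited ratios 1 of them stayed so, since AGABI2DRAFT_194064 stood at -0.20 on water day 3 replicate 2. No other gene of the set was above 0 on all 4 riboflavin arrays, where 7.64% of the expressed genes were. With both riboflavin replicate 2 arrays turned, 6 genes of the set and 2.92% of the expressed genes were above 0 on all 8 arrays. The rule used the water arrays among these, so it favours the set in each count over all 8 arrays. For AGABI2DRAFT_194064 the drought net signals with water were 98.5, 162, 92.5 and 192 and the irrigated signals 85, 57, 50.5 and 34. With riboflavin the drought signals were 126, 88, 210 and 258 and the irrigated signals 128.5, 38, 59.5 and 28. The groups did not overlap with water, and they overlapped with riboflavin through the day 3 arrays. Net signals are not corrected for dye, so the loess ratio can lie above 0 where the net signals are nearly equal, as on riboflavin day 3 replicate 1. The log2 ratios on the day 3 and day 7 riboflavin arrays were 0.42, 0.34, 1.67 and 1.58.

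The fitted riboflavin response of AGABI2DRAFT_194064 was 1.62 ± 0.34 on day 7 (limma, adjusted p 0.417), from 2 of 2 arrays above 0, and 0.34 with replicate 2 turned. Its mean over both days was 1.00 ± 0.24 (4 of 4 arrays above 0, limma adjusted p 0.343), with adjusted p-values of 0.0505 to 0.993 over the alternatives run. The day 7 response minus that of day 3 was 1.24 ± 0.49 (limma, adjusted p 0.999), and 0.0068 with replicate 2 turned. None of these passed the threshold of 0.05.

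AGABI2DRAFT_211434 had water drought signals of 91.5, 336.5, 47.5 and 29.5 beside irrigated signals of 38, 34, 29.5 and 27. With riboflavin the drought signals were 238.5, 261, 113 and 77 and the irrigated signals 97, 36, 41 and 40. Drought exceeded irrigated on each of the 8 arrays, with the groups overlapping in both supplements. Its riboflavin arrays gave log2 ratios of 1.48 and 1.44 on day 3, and of 1.11 and 0.23 on day 7. Its fitted response was 1.46 ± 0.28 on day 3 (limma, adjusted p 0.404), or 0.19 with replicate 2 turned. It was 1.07 ± 0.20 over both days (limma, adjusted p 0.227, with a range of 0.0528 to 0.964 over the alternatives). In the fit with both replicate 2 arrays turned, the mean over both days fell to 0.40 for AGABI2DRAFT_211434 and to 0.34 for AGABI2DRAFT_194064. The turned responses of both genes, per day and over both days, include a dye term estimated on the water arrays alone. Without that term, the turned replicate 2 ratios of AGABI2DRAFT_194064 nearly cancelled those of replicate 1 on both days. Those of AGABI2DRAFT_211434 nearly cancelled on day 3.

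In several genes 1 water array carried the mean. AGABI2DRAFT_114522 read 696 in drought on day 7 replicate 1 and 22.5 to 116 in the other drought channels, with log2 ratios of 3.85 there and 0.14 to 0.25 elsewhere. AGABI2DRAFT_195415 was high on the same array, with a drought signal of 456, a ratio of 2.75 and other ratios of 0.13 to 0.30. AGABI2DRAFT_139182 and AGABI2DRAFT_191519 were instead high on day 3 replicate 2, with drought signals of 1219 and 1150 and ratios of 3.34 and 2.94. The remaining ratios of these last 2 genes lay between 0.05 and 0.12 and between -0.12 and 0.44. AGABI2DRAFT_121081 was high on that array too, at 2.11 beside -0.02 to 0.37. For these 5 genes a single array gave over 80% of the sum of the 4 ratios, from 81.7% for AGABI2DRAFT_195415 to 92.8% for AGABI2DRAFT_139182.

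Without its highest water array, the deposited mean fell below 0.6 for 9 of the 20 genes and stayed at or above it for 11. In the ratios recomputed here, which are smaller for dim genes, it fell below for 13 and stayed for 7. In the deposited ratios the same 11 genes remained in the set whichever water array was left out. They were the 4 leading genes, AGABI2DRAFT_193554, AGABI2DRAFT_187819, AGABI2DRAFT_195355, AGABI2DRAFT_194625, AGABI2DRAFT_63301, AGABI2DRAFT_177171 and AGABI2DRAFT_211434. The highest array was from day 7 for 12 genes and from day 3 for 8. The mean of the day 7 ratios exceeded that of the day 3 ratios for 13 genes. On all 4 water arrays together, 14 genes had a normalized ratio above 0, beside 9.66% of the expressed genes, a count that the rule itself favours.

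**Figure D4:**
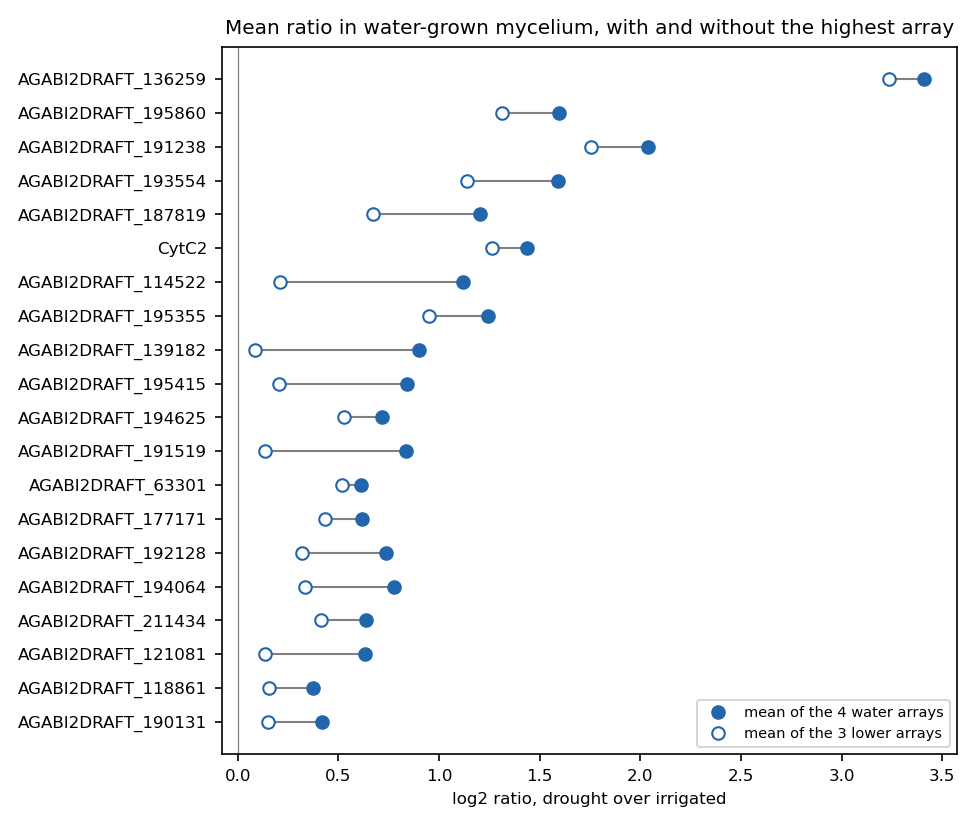
Mean log2 ratio of drought over irrigated (x axis), in the ratios recomputed here and not the deposited ones, of the 20 genes over the 4 water arrays (filled) and over the 3 arrays left when the highest is removed (open). The means of AGABI2DRAFT_136259 stay far from 0 at 3.41 and 3.23, while AGABI2DRAFT_139182 falls from 0.90 to 0.09.

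AGABI2DRAFT_177171 and AGABI2DRAFT_118861 were dim genes near the detection limit. No water array had an irrigated signal of AGABI2DRAFT_177171 well above background, and its drought level was at least 1.51-fold higher on day 3. On day 7, 1 of the 2 drought signals was well above background. The other read 10.75 beside 23 in irrigated mycelium, so no bound is given for that day. The irrigated signals of AGABI2DRAFT_118861 were likewise not well above background, and its log2 ratios on day 7 were 1.03 and 0.20. On day 7 replicate 2 its net signal was 12.5 in drying and 18.25 in irrigated mycelium. No bound is given for that gene either. AGABI2DRAFT_192128 changed sign among the water arrays, at 1.99, -0.64, 0.17 and 1.42. Its riboflavin ratios were -2.12, -0.19, 0.67 and 0.04, and its fitted riboflavin day 3 response was -1.16 ± 0.84 (limma, adjusted p 0.832). That response was -1.31 with replicate 2 turned and -2.46 without replicate 2 of either day.

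The limits of the rule fell among closely spaced values. Just inside the mean limit stood AGABI2DRAFT_190131 at a deposited mean of 0.68, AGABI2DRAFT_118861 at 0.70 and AGABI2DRAFT_121081 at 0.82. Just outside stood AGABI2DRAFT_116785 at 0.58, AGABI2DRAFT_187783 at 0.58 and AGABI2DRAFT_193572 at 0.57. AGABI2DRAFT_195164, AGABI2DRAFT_188048 and AGABI2DRAFT_182197 reached means of 1.17, 1.05 and 0.92 but had a ratio above 0 on only 2, 2 and 1 of the water arrays. In normalized ratios recomputed here, which shrink dim signals more than the deposited ones, the means of AGABI2DRAFT_118861 and AGABI2DRAFT_190131 were 0.37 and 0.42.

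Whether the 20 genes also differed between drying and watered mycelium in the presence of riboflavin was tested with limma over all 449 expressed genes. On day 3 no gene passed an adjusted p of 0.05 (0% of the expressed genes). At an unadjusted p under 0.05 there were 30 genes (6.68%), of which 1 belonged to the set. On day 7 again no gene was called (0%), and 19 passed at an unadjusted p under 0.05 (4.23%), 1 of them from the set. Over the mean of both days 1 gene was called (0.223%). It was AGABI2DRAFT_139997, not a member, with a log2 response of -2.46 ± 0.17 as labelled (limma, adjusted p 0.0208). Its plain mean ratio with replicate 2 turned, which is not a fitted response, was 0.51. No gene was called under 14 of 20 alternatives, among them the deposited ratios, the fit without the dye term, supplement by replicate number as a random block, and the omission of any single riboflavin array. At an unadjusted p under 0.05 there were 42 (9.35%), 2 of them members, AGABI2DRAFT_211434 and AGABI2DRAFT_194064. The day 7 response minus the day 3 response gave no call (0%) and 8 genes at an unadjusted p under 0.05 (1.78%), none of them a member.

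As labelled, the fitted riboflavin responses of the 20 genes had a median of -0.15 on day 3, -0.04 on day 7 and -0.08 over both days, beside -0.03, -0.02 and -0.02 for all expressed genes. In plain means of the ratios with replicate 2 turned, which are not fitted responses, the medians of the set were 0.13, 0.31 and 0.20, beside -0.01, -0.02 and -0.02. Over both days 9 of the 20 genes had a fitted response above 0, beside 44.5% of the expressed genes. With replicate 2 turned 13 had a plain mean ratio above 0, beside 47.4%. The standard errors were wide, with a median of 0.76 per day for the 20 genes against 0.26 for all expressed genes. Each gene's error was estimated from all 8 arrays together, and both the opposed riboflavin ratios and the single high water arrays widen it. A change of moderate size in these genes was thus not detectable, and its absence is not shown.

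Signs were also counted array by array. On the water arrays, which the rule used, 20, 18, 19 and 17 genes were above 0, beside 56.6%, 37%, 49.9% and 46.1% of the expressed genes, in the order day 3 replicates 1 and 2, then day 7 replicates 1 and 2. With riboflavin 13 and 14 genes were above 0 on the replicate 1 arrays of day 3 and day 7 (53.7% and 50.8% of the expressed genes). On the replicate 2 arrays 7 were above 0 on each day, where 55% and 47.9% of the expressed genes were. Of the 20 genes 3 were above 0 on at least 3 riboflavin arrays, beside 29.7% of the expressed genes, and 4 were below 0 on at least 3, beside 24%. A ratio above 0 on both replicate 1 arrays with a ratio below 0 on both replicate 2 arrays was found for 8 of the 20 genes and for 22.7% of the expressed genes. With both replicate 2 arrays turned, 11 genes were above 0 on at least 3 riboflavin arrays (37.8% of the expressed genes) and 4 were below 0 on at least 3 (41.8%). The ratio part of the rule, applied to the riboflavin arrays in the labelled direction, kept 2 of the 20 genes, beside 4.27% of the expressed genes. With replicate 2 turned it kept 7, beside 12.6%.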

How the data were processed

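The scanner tables, written by Feature Extraction 11.5.1.1 per the file headers, hold a spot intensity and a background intensity for each channel, and a processed intensity that was used for an alternative. Per the file headers, the same software computed the log10 ratio of the processed red and green signals, which served here to settle the direction. The authors also deposited a table of log2 ratios. The submitters' processing notes name limma, and every deposited log2 ratio was recovered to within 5e-10 by normexp (offset 16) and then loess. That table is red over green, with column medians of -0.00308 to 0.00615 and no centring between arrays.

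The gene set was chosen on the deposited log2 ratios. All other ratios were recomputed in limma 3.58.1 under R 4.3.3 from the median intensities, with normexp at an offset of 50, loess within arrays and control spots at weight 0. The scanner's outlier spots (16 to 37 per array) were left out, spots of a probe were averaged, and ratios were turned to drought over irrigated. The fit used all 8 arrays, with a term for each group and a dye orientation term (3 residual degrees of freedom, to which eBayes added 1.62). P-values were adjusted by Benjamini-Hochberg over the 449 expressed genes. The script was tested on simulated data. Channel levels and "at least" folds used loess and Aquantile normalization. All 8 arrays lay on 1 slide, and the number of arrays limits the precision. The replicate number equals the dye orientation in every group, so the dye term is also the replicate block. Supplement by replicate number was run as a random block in an alternative.

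Locus tags of the assembly Agabi_varbisH97_2 matched 10348 of the 10413 genes. Coordinates and probe sequences were not used here, since the array's genome build is not named. The set, its gene lists and the tests were chosen with earlier results of these data known, and the wider symbol lists after the reference table was seen. Members were named if they had the 10 largest deposited means, a deposited ratio of 0.6 or higher on all 4 water arrays, a symbol, 1 of the 3 smallest p-values of a test, a ratio above 0 on all 8 arrays, 1 of the 3 highest or lowest riboflavin means or of the 3 brightest signals, or a place next to the mean limit. The called gene and AGABI2DRAFT_191519, AGABI2DRAFT_194625, AGABI2DRAFT_63301, AGABI2DRAFT_177171, AGABI2DRAFT_182197, AGABI2DRAFT_188048 and AGABI2DRAFT_195164 were named after their values were seen.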

Additional observations from a re-analysis of the deposited data

Results flagged for a closer look

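Single arrays stood far from the other 3 of the same supplement for 7 of the 20 genes. Over the 20 genes and both supplements, 8 such values were found by the gap between the extreme array and its neighbour as a share of the range (Dixon's limit for 4 values). Of these, 4 were on the riboflavin arrays, all of them on replicate 2 arrays. The limit flags about 1 in 20 groups of 4 like values by chance. The riboflavin arrays mix days and opposed dye orientations, so that rate is no measure of what to expect there. The other 4 were on the water arrays, where that rate does not apply either, because the genes were chosen on those values. On the water arrays, AGABI2DRAFT_114522 (3.85), AGABI2DRAFT_195415 (2.75) and AGABI2DRAFT_118861 (1.03) stood apart on day 7 replicate 1. AGABI2DRAFT_139182 stood apart on water day 3 replicate 2 (3.34). On riboflavin day 3 replicate 2 the values were 2.25 for AGABI2DRAFT_193554 and 1.33 for AGABI2DRAFT_187819. On riboflavin day 7 replicate 2 they were 3.47 for CytC2 and 0.64 for AGABI2DRAFT_118861.

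On day 3, 3 genes were above 0 on both water arrays and below 0 on both riboflavin arrays as labelled, beside 14 of the 445 expressed genes (3.15%). Their riboflavin means were -0.45 for AGABI2DRAFT_195415, -0.30 for AGABI2DRAFT_177171 and -0.13 for AGABI2DRAFT_118861, beside water means of 0.24, 0.63 and 0.13. With replicate 2 turned, none of these 3 was below 0 on both riboflavin arrays, 3 other genes of the set were, and so were 6.29% of the expressed genes. These differences were not tested, since the water arrays chose the genes.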

How the results depend on the processing

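No member of the set was called under any alternative, of which the mean of both days had 20 and each other comparison 19. Over all expressed genes, the 1 call in the mean of both riboflavin days became 0 with the deposited log2 ratios, the processed signals, median centring, an intensity trend with robust fit, both riboflavin replicate 2 arrays turned, and supplement by replicate number as a random block (correlation 0.548). It was also 0 in the fit with no replicate block, that is, without the dye term, and without riboflavin replicate 2 of either day, an alternative added after seeing the data. Leaving out single arrays gave 0 to 1 calls. With no filter on dim probes there were 6 calls, and 3 on day 3 and 1 on day 7, over more genes tested. With each dye pair averaged to 1 value there were 8. The cause of these changes was not tested. The set held 62 genes, all 20 among them, when processed signals were used, 13 at a mean of 1 or higher, 13 with a ratio above 0 on all 4 water arrays, and 26 to 31 with a water array left out. For the sets with a water array left out, the ratio had to exceed 0 on at least 2 of the other 3. Genes above 0 on at least 3 riboflavin arrays numbered 11 with replicate 2 turned, and 6 to 13 were above 0 on at least 2 of 3 arrays with an array left out. The median riboflavin ratio of the set, -0.08, became 0.45 without both replicate 2 arrays. Of 231 single-gene values under alternatives, 135 equal the reported estimate by construction. Of the other 96, 85 kept their direction and 11 turned. With replicate 2 turned, AGABI2DRAFT_195355 had 1.07 on day 3 and 1.49 over both days (0.36 without both replicate 2 arrays), CytC2 had -2.08 on day 7 and -1.70 for day 7 minus day 3, and AGABI2DRAFT_211434 had 0.42 for day 7 minus day 3. With single arrays left out, CytC2 ran from -0.42 (without riboflavin day 7 replicate 2) to 3.49 (without replicate 1 of that day) on day 7, and its day difference from -0.26 to 3.65. Without both replicate 2 arrays these were -0.55 and -0.0094. The fits with both replicate 2 arrays turned or left out take their dye term from the water arrays alone. AGABI2DRAFT_192128 ran from -2.45 (without riboflavin day 3 replicate 2) to 0.14 (without replicate 1) on day 3.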
